A study of Homo sapiens with 20 samples.

Results

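Peaks of H3K4me3 overlapping 3 stretches of the GRCh37 genome were collected, one around each of the genes ALDH1A3, LAD1 and LIN7A, whose promoters carried the mark in dabrafenib-resistant WM164 cells. The stretches were chr15:101300000-101460000 for ALDH1A3, chr1:201360000-201375000 for LAD1 and chr12:81320000-81340000 for LIN7A. The 3 genes were chosen by their difference between resistant and parental cells in these same peak lists. Their resistant values are therefore a description and carry no test. The stretches held 70 of the 306884 peaks of all lists. After peaks of all libraries within 1000 bp of each other were merged, they held 8 of 31428 marked regions, 6 around ALDH1A3 and 1 each around LAD1 and LIN7A.

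WM164 is an established human melanoma line with mutant BRAF, and all groups share that background. Each of the 5 groups has 2 H3K4me3 libraries. Parental cells received DMSO, the drug's solvent, for 3 days. Colony cells had spent 45 days in 50 nM dabrafenib, an inhibitor of the BRAF kinase, and resistant cells more than 90 days at that dose, with the drug renewed every 3 days. The other groups overexpressed GFP, a fluorescent protein that serves as their control, or NRAS Q61K, an activated form of a RAS protein that signals upstream of BRAF. The vector and promoter of these transgenes, and whether any group is 1 clone, are stated in none of the sources used here. Nothing says that the 2 libraries of a group came from separate cultures. Each p-value rests on the spread within groups, pooled over all 5 and drawn toward that of other regions. That spread may be technical.

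H3K4me3 is trimethylation of histone H3 at lysine 4. It is laid down by the SET1 and MLL methyltransferase complexes around the start sites of active or poised genes, often just downstream of the start, and promoters rich in CG dinucleotides carry it most often. ALDH1A3 encodes a retinaldehyde dehydrogenase that makes retinoic acid, and it has been studied in melanoma as a source of aldehyde dehydrogenase activity. LAD1 encodes ladinin, a protein of epithelial basement membranes. LIN7A encodes a PDZ-domain scaffold of cell polarity complexes at junctions and synapses. Transcripts were not analysed here, so the text below concerns the mark and not expression.

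RefSeq promoter windows for all 3 genes (GRCh38.p14, from 250 bases before to 50 after the annotated start) are printed 5′ to 3′ on the strand of the gene, because the new mark lay around the starts of these genes. Whether RefSeq's starts are the GRCh37 start sites used for distances was not tested. Capitals mark a GC box (GGGCGG) or CCAAT box, and in LAD1 also an E-box (CATGTG), a TEAD motif (GGAATG) or a SOX core (ACAAAG), each on either strand. ALDH1A3 is at chr15:100879581-100879880 on the plus strand, LAD1 at chr1:201399275-201399574 on the minus strand, and LIN7A has windows at chr12:80937885-80938184 and chr12:80937658-80937957 on the minus strand, whose starts lie 227 bases apart. These positions are in GRCh38.p14 and all others are in GRCh37, and none was converted.
ALDH1A3: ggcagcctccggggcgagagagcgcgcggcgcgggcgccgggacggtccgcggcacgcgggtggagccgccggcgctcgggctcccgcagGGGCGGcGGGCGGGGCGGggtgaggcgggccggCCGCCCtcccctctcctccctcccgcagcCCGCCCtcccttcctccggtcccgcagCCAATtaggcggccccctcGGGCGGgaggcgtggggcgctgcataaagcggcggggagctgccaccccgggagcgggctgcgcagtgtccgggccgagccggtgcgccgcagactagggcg
LAD1: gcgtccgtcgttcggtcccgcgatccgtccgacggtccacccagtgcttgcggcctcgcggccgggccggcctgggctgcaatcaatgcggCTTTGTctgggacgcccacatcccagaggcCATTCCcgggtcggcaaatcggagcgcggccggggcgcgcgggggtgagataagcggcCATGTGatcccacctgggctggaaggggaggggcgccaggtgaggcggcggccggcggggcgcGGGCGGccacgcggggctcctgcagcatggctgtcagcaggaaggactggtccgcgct
LIN7A first start: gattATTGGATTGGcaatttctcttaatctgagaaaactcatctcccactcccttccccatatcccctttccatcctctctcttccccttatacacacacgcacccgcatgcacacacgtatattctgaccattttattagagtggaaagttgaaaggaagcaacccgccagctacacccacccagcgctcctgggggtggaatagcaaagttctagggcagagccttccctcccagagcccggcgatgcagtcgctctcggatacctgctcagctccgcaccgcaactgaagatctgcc
LIN7A second start: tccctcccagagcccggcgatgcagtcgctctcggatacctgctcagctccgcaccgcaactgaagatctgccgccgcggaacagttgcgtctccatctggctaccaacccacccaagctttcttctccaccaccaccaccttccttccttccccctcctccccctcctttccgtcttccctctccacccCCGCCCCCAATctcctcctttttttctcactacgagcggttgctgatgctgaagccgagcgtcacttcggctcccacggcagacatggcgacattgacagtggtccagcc

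The windows differed widely in base composition. That of ALDH1A3 was 81.7% G or C and held 46 CG dinucleotides, more than 97.1% of the 35116 RefSeq windows. That of LAD1 was 73.3% G or C with 38 CG dinucleotides, more than 90.1% of windows. The LIN7A windows held 11 and 19 CG dinucleotides, around the median of 14 over all windows, with 52.7% and 61.3% G or C. By this count, a promoter very rich in CG was shared by ALDH1A3 and LAD1 but not by LIN7A. The ratio of CG found to that expected from C and G content was 0.92 in ALDH1A3 and 0.96 in LAD1. In the LIN7A windows it was 0.58 and 0.81, against a median of 0.58 over all windows. On that measure the second LIN7A start came nearer to ALDH1A3 and LAD1.

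**Figure D1:**
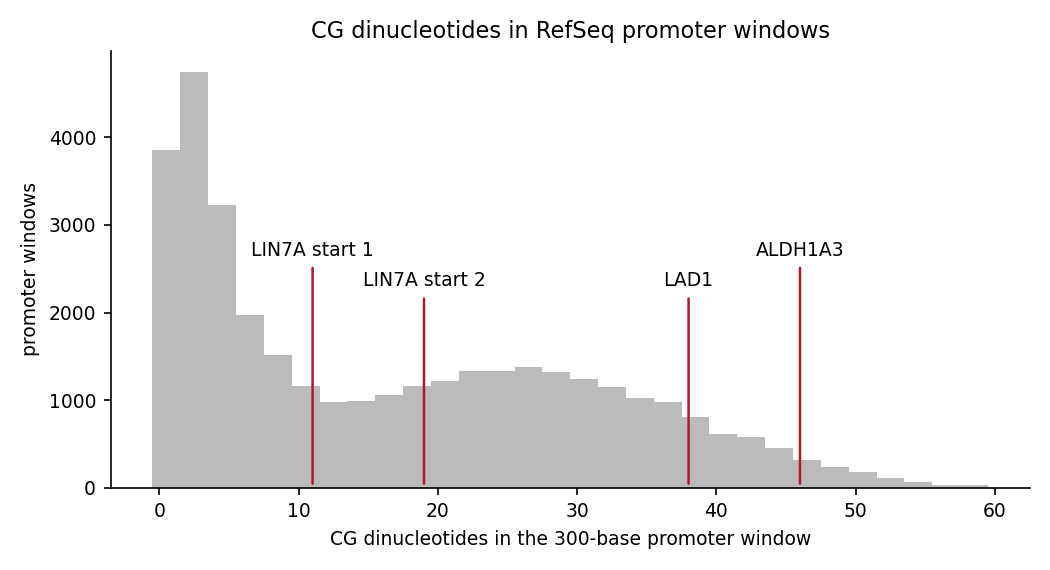
CG dinucleotides per RefSeq promoter window of 300 bases (x axis) against the number of windows (y axis), over 35116 windows, with the windows of the 3 genes marked by red lines. ALDH1A3 (46) and LAD1 (38) sit in the upper tail, and both LIN7A windows (11 and 19) sit near the median of 14.

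A set of 8 short motifs was searched on both strands, and no motif was present in the windows of all 3 genes except the GC box. ALDH1A3 had 6 GC boxes, of which the copies starting 153 and 148 bases upstream overlap, and a CCAAT box starting 71 bases upstream. LAD1 had 1 GC box starting 8 bases upstream. LIN7A had 1 GC box and 1 CCAAT box in the window of its second start and 2 adjoining CCAAT boxes, on the opposite strand, in that of its first. GC boxes are in 45.0% of all windows and CCAAT boxes in 34.6%. LAD1 also held CATGTG, a form of the E-box bound by factors such as MITF, the TEAD motif GGAATG and the SOX core ACAAAG, which 11.1%, 14.03% and 16.1% of all windows hold. TATAAA (11.5% of windows), the AP-1 site TGACTCA (4.95%) and the E-box CACGTG (7.26%) were in none of the 4 windows. These matches are letters in a window and were not tested as binding sites.

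The lists differed in size between groups. On the autosomes and X the resistant lists held 19401 and 19111 peaks, and those of the other 8 libraries from 21408 to 45376. Resistant lists thus held the fewest peaks, but their median summit was the highest, at 49 reads in both against 20 to 42 elsewhere. Those reads were not scaled for depth or background. The median local background was 4.86 and 4.95 reads in resistant lists, 5.27 and 3.76 in parental and 4.44 and 4.11 in colony lists. In GFP lists it was 3.46 and 2.96, and in NRAS Q61K lists 4.03 and 3.58. The median peak of the resistant lists was also the longest, at 1593 and 1553 bp against 366 to 1518 bp. Whether these differences bear on the new marks was not tested. Regions marked in all 10 libraries were narrower in resistant cells, with median shifts of -0.187 and -0.218 on the log2 scale relative to the average library. Changes are given relative to that shift. Without it, 3.81% of all tested regions were wider and 31.4% narrower in resistant than in parental cells, against 7.93% and 20.6% with it. Tests were made with limma on log2(bases under peaks + 200), over the 23153 regions marked in 2 or more libraries, and a call is an adjusted p below 0.05.

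The ALDH1A3 promoter carried one of the broadest and strongest H3K4me3 domains that appeared in resistant cells. Peaks covered 6934 bp in resistant 1 and 6014 bp in resistant 2, and 0 bp in both parental, both colony, both GFP and both NRAS Q61K libraries. The resistant mean was 6474 ± 651 bp (SD, n = 2). The merged region, chr15:101418376-101425549, ran from 1521 bases upstream to 5652 bases downstream of the start site given for the gene. Its main peak spanned 842 bases upstream to 5152 downstream in resistant 1 and 709 upstream to 4846 downstream in resistant 2. The domain thus lay mostly over the gene body, with 84.4% ± 5.42 (SD, n = 2) of the covered bases downstream of the start. The summits lay 1711 and 1538 bases downstream.

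The height of that peak could be read back as reads. Solving the authors' fold and p-value for each summit gave 96 reads over a local background of 4.89 in resistant 1 and 98 over 5.46 in resistant 2. The authors' folds at these summits were 16.5 and 15.3, and their −log10 q-values were 82.8 and 80.9. By −log10 q the peak was number 462 of the 19401 in the resistant 1 list and number 522 of the 19111 in resistant 2. The new ALDH1A3 peak therefore ranked among the strongest few percent of all H3K4me3 peaks in those cells. The resistant pair placed it alike, sharing 5946 bp of a union of 7002 bp (Jaccard index 0.849).

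The LAD1 promoter gained a narrower domain. It covered 3546 bp in resistant 1 and 3932 bp in resistant 2, against 0 bp in both parental, both colony and both GFP libraries. NRAS Q61K 1 had 205 bp there and NRAS Q61K 2 had 0 bp. The resistant mean was 3739 ± 273 bp (SD, n = 2), in the region chr1:201366341-201370330, and no other library came near it. The main peak ended 2395 bases downstream of the start in both resistant libraries and began 1150 and 1141 bases upstream. Its summits, at 643 and 555 bases downstream, held 69 reads each over local backgrounds of 5.08 and 5.96, with folds of 11.5 and 10.1 and −log10 q of 49.6 and 45.3. The pair shared 3537 bp of 3941 (Jaccard index 0.897).

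The LAD1 peak in NRAS Q61K 1 was of another size. It spanned 245 to 449 bases downstream of the start, with 15 reads over a background of 3.87, a fold of 3.29 and a −log10 q of 3.58. It was number 33720 of the 40648 peaks in that list. It was absent when peaks needed a −log10 q of at least 10 and when all lists were cut to equal length. LAD1 alone of the 3 promoters had any listed mark outside resistant cells.

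The LIN7A promoter gained a domain of intermediate width and the lowest height. Peaks covered 4263 bp in resistant 1 and 4631 bp in resistant 2, and 0 bp in the other 8 libraries. The mean was 4447 ± 260 bp (SD, n = 2), over chr12:81328669-81333505. The main peak ran from 1246 bases upstream to 3016 downstream in resistant 1 and from 1110 upstream to 3031 downstream in resistant 2. Both edges thus lay close together in the pair, which shared 4127 of 4767 bp (Jaccard index 0.866). Summits held 54 and 52 reads over backgrounds of 4.86 and 4.95, with folds of 9.38 and 8.90. The summits did not coincide, lying 1196 bases downstream in resistant 1 and 5 bases upstream in resistant 2, so the position of the top differed within the pair.

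**Figure D2:**
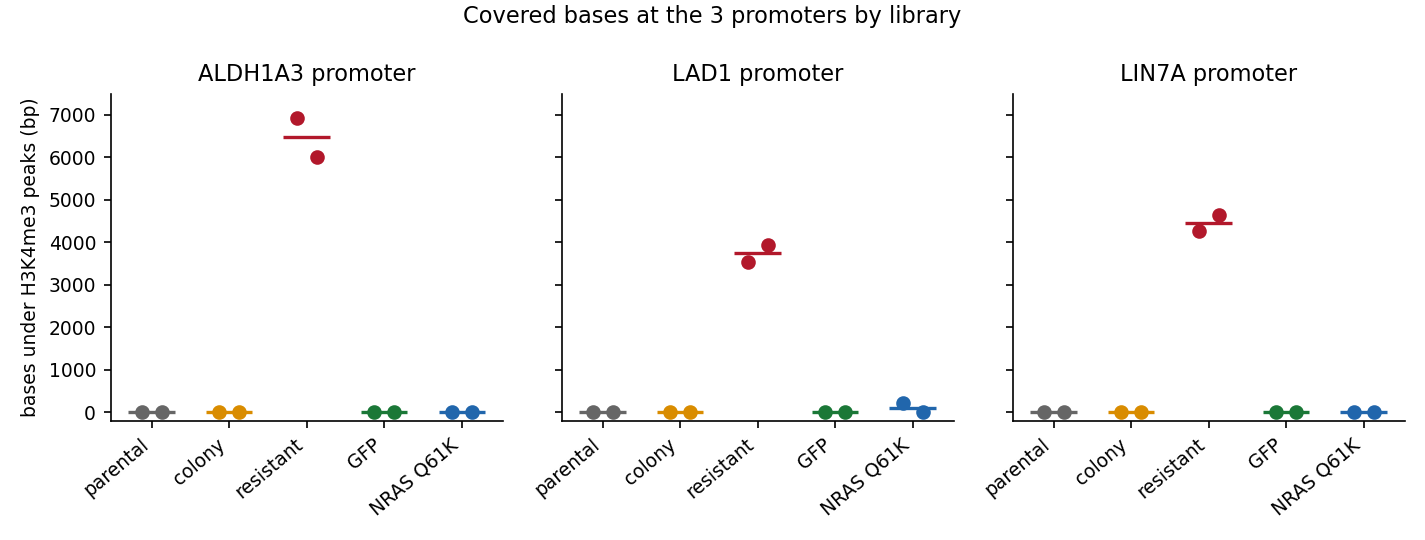
Bases under H3K4me3 peaks (y axis, bp) at each of the 3 promoter regions, by group (x axis); points are libraries and bars are means of 2. Resistant libraries lie between 3546 and 6934 bp at the 3 promoters and all others at 0 bp, apart from 205 bp at LAD1 in NRAS Q61K 1.

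**Figure D3:**
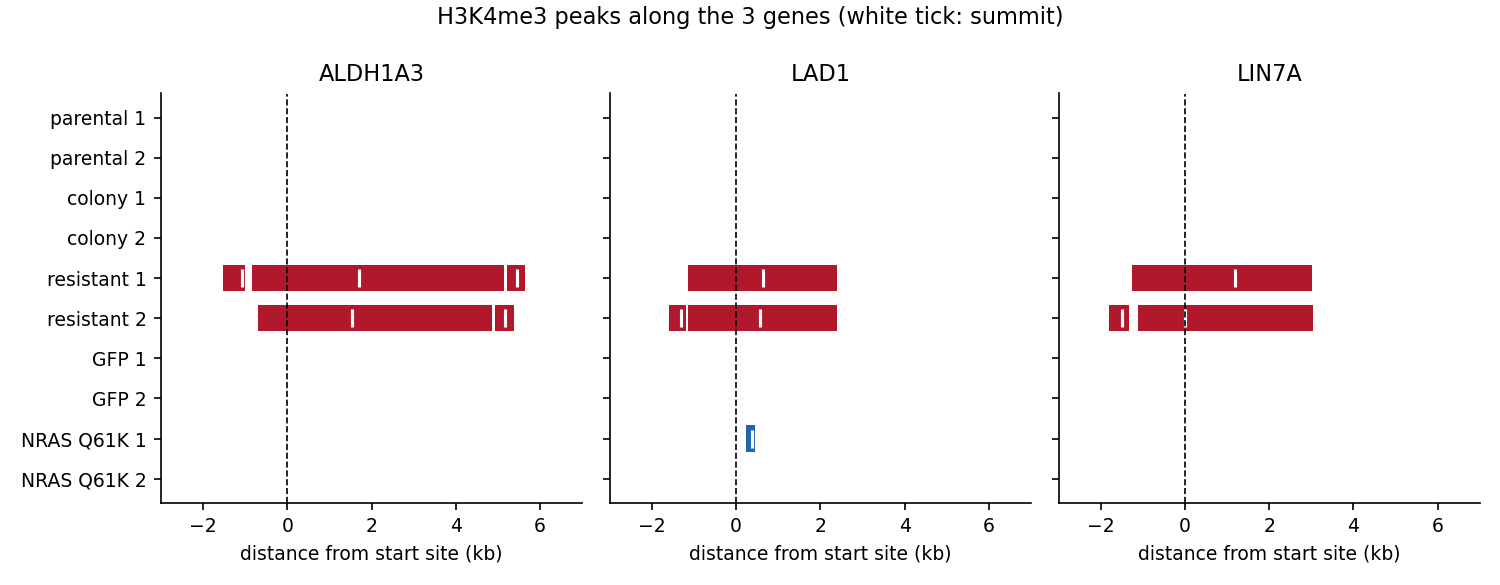
H3K4me3 peaks of each of the 10 libraries (rows) by distance from the start site (x axis, kb; positive is downstream along the gene), with white ticks at summits and a dashed line at the start. Every resistant main peak spans the start and reaches further downstream than upstream, to 5152 bases at ALDH1A3.

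All 3 domains were skewed into the gene. Downstream bases made up 84.4% ± 5.42 of the ALDH1A3 domain, 68.1% ± 3.75 of LIN7A and 64.3% ± 4.69 of LAD1 (SD, n = 2 each). The LAD1 and LIN7A shares overlap between libraries, at 67.6% and 60.9% against 70.8% and 65.5% in resistant 1 and 2. ALDH1A3 lies above both. Covered bases upstream of the start were more alike than those downstream, at 1029 ± 453 bp for ALDH1A3, 1343 ± 273 bp for LAD1 and 1423 ± 250 bp for LIN7A, against 5445 ± 198, 2396 and 3025 ± 10.6 bp downstream.

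An empty promoter in these lists means that no peak was called there. The lowest summit of any listed peak was 8 to 15 reads, depending on the library, so a weaker mark than that would go unlisted. The summits of the 3 new domains, at 52 to 98 reads, were well above that floor in the resistant lists, where it was 14 and 15 reads. A weak mark in parental or colony cells was not detectable from the lists. The 5th percentile of listed summits was 12 to 19 reads, so few peaks came close to the lowest. Short marks could go unlisted too. The shortest listed peak was 255 and 256 bp in resistant, 282 and 284 bp in colony and 202 and 180 bp in parental lists. In GFP lists it was 142 and 153 bp, and in NRAS Q61K lists 153 and 151 bp. A peak of 205 bp was thus shorter than any in the resistant or colony lists.

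Among regions marked in both resistant libraries, the 3 domains were broad. The median of those 13304 regions was 2381 bp. ALDH1A3 was broader than 97.8% of them, LIN7A than 90.9% and LAD1 than 83.5%. The 3 new domains were in the upper part of the widths seen in these cells. The genes were chosen from these same lists, so the ranks only describe them.

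**Figure D4:**
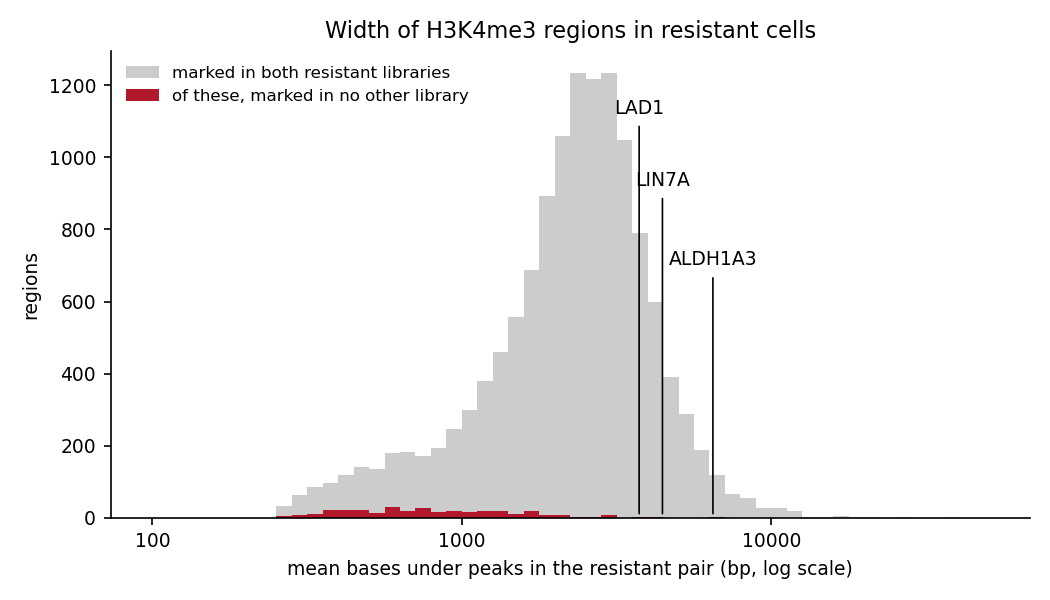
Mean bases under peaks in the resistant pair (x axis, bp, log scale) against the number of regions (y axis); grey, the 13304 regions marked in both resistant libraries; red, the 338 of these marked in no other library. Lines place the 3 promoters, all above the median of 2381 bp for the grey regions and of 756.5 bp for the red.

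Regions newly marked in resistant cells were few. A peak in both resistant and neither parental library was found at 514 regions, 1.64% of all 31428, and the 3 promoters are among them by their choice. At 338 regions, 1.08%, both resistant libraries had a peak and none of the other 8 did. ALDH1A3 was the 2nd broadest of the 338 and first by mean −log10 q, and LIN7A was the 3rd broadest and number 7 by −log10 q. These ranks, too, belong to genes chosen from the same lists. LAD1 was left out of the 338 by the 205 bp in NRAS Q61K 1. Most of the 338 were much narrower, with a median of 756.5 bp and an interquartile range of 469.6 to 1263 bp.

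The resistant-only regions nearest to each promoter in mean covered bases were taken as its closest likenesses. For ALDH1A3 they were 14q21.1 (chr14:42071272-42079827, 6575 and 6919 bp), the LIN7A promoter itself, and Xq25 (chrX:123361648-123365662, 3982 and 3828 bp). For LAD1 they were 10q24.2 (chr10:100010790-100014911, 3893 and 3286 bp), Xq25, and 12p13.33 (chr12:2160658-2164244, 3223 and 3042 bp). For LIN7A the same Xq25, 10q24.2 and 12p13.33 regions came nearest. The 14q21.1 region matched ALDH1A3 in width, at 6747 ± 243 bp (SD, n = 2), with a mean fold of 9.05 against 15.9 for ALDH1A3. The likeness is over 2 libraries and 1 measure, and genes in these regions were not analysed here.

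The ALDH1A3 stretch also held marked regions away from the start, and none of these was marked in resistant cells alone. A region 83.4 to 75.9 kb upstream (chr15:101336454-101344040) was covered over 6356 and 6439 bp in resistant libraries. GFP libraries had 6059 and 5405 bp there, NRAS Q61K libraries 6548 and 5690 bp. Colony libraries had 0 bp, and parental libraries 0 and 224 bp. It was therefore broadly marked in 3 of the 5 groups, whereas the promoter was marked in resistant cells alone. Among parental, colony and resistant libraries, both this region and the promoter were broad in the resistant pair only. The transgene groups set them apart. GFP cells exceeded parental cells by 4.22 on the log2 scale (SE 0.32, limma adjusted p = 2.36e-03), with both GFP libraries above both parental libraries. The stretch was set with earlier results of these data known, and the parental libraries entered the choice of genes. P-values against parental cells in this stretch may therefore not be independent of that choice. Over all 23153 regions tested, 2.67% were wider in GFP than in parental cells. NRAS Q61K and GFP cells differed by 0.14 (SE 0.32, adjusted p = 0.916), less than the SE. That SE is pooled over all 5 groups, among them the parental pair of 0 and 224 bp. The region was thus marked in the transgene cells whichever protein they expressed. The labels give fixation conditions for parental and drug-treated cells only, so handling and transgene cannot be told apart here.

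A pair of small upstream regions had no peak in either drug-treated group, and both were marked in all 4 transgene libraries. That at 30.2 to 28.7 kb upstream (chr15:101389740-101391174) had 0 bp in all 4 colony and resistant libraries. The parental libraries had 992 and 340 bp, GFP 874 and 646 bp, and NRAS Q61K 1435 and 915 bp. Colony cells were below parental cells, with a log2 change of -2.03 (SE 0.35, adjusted p = 4.79e-03). Regions narrower in colony than in parental cells made up 16.7% of those tested, so the loss was 1 among many. It was not called with lists of equal length (-1.34, adjusted p = 0.251). With peaks of −log10 q from 10 upward the change was -0.027 (adjusted p = 0.989), since the parental peaks, at 9.63 and 4.66, are then removed and all 4 libraries are empty. That at 18.2 to 15.8 kb upstream (chr15:101401711-101404066) again had 0 bp in colony and resistant libraries. The parental libraries had 472 and 0 bp, GFP 525 and 989 bp, and NRAS Q61K 2020 and 1531 bp. Colony against parental cells did not pass the threshold there (log2 change -0.90, SE 0.50, adjusted p = 0.273), except without the empty parental 2 (-1.72, adjusted p = 0.0151). Both NRAS Q61K libraries were above both GFP libraries, by 1.13 on the log2 scale (SE 0.50, adjusted p = 0.292), which did not pass the threshold. That call turned on the settings. The rise was 3.11 with lists of equal length (adjusted p = 3.13e-04) and 3.12 with peaks of −log10 q from 10 upward (adjusted p = 1.44e-04). Both cuts removed every GFP peak there, at −log10 q of 7.74 and 3.84 in GFP 1 and 5.05 and 5.54 in GFP 2. Those rises are therefore against an emptied GFP pair. With 1000 bp added before the log the rise was 0.70 (adjusted p = 0.040).

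A region 37.6 to 42.3 kb downstream (chr15:101457491-101462198) was marked in all 10 libraries. The colony libraries had 1702 and 1352 bp there, the resistant 2699 and 2549 bp and the parental 3241 and 2541 bp. The GFP libraries had 3707 and 3554 bp, and the NRAS Q61K libraries 3526 and 3796 bp. Colony cells lay below all other libraries and were below parental cells, with a log2 change of -0.86 (SE 0.12, adjusted p = 1.81e-03). Of these 4 tested regions other than the promoter, limma called 2 narrower in colony than in parental cells and 1 wider in GFP than in parental cells. With the settings first given, none of the 4 was called between NRAS Q61K and GFP cells, where 5.06% of all tested regions were wider and 2.18% narrower, and 0 of the 4 had an unadjusted p below 0.05. The last region, 151 bp near 11.3 kb downstream, was in GFP 1 alone and was not tested.

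**Figure D5:**
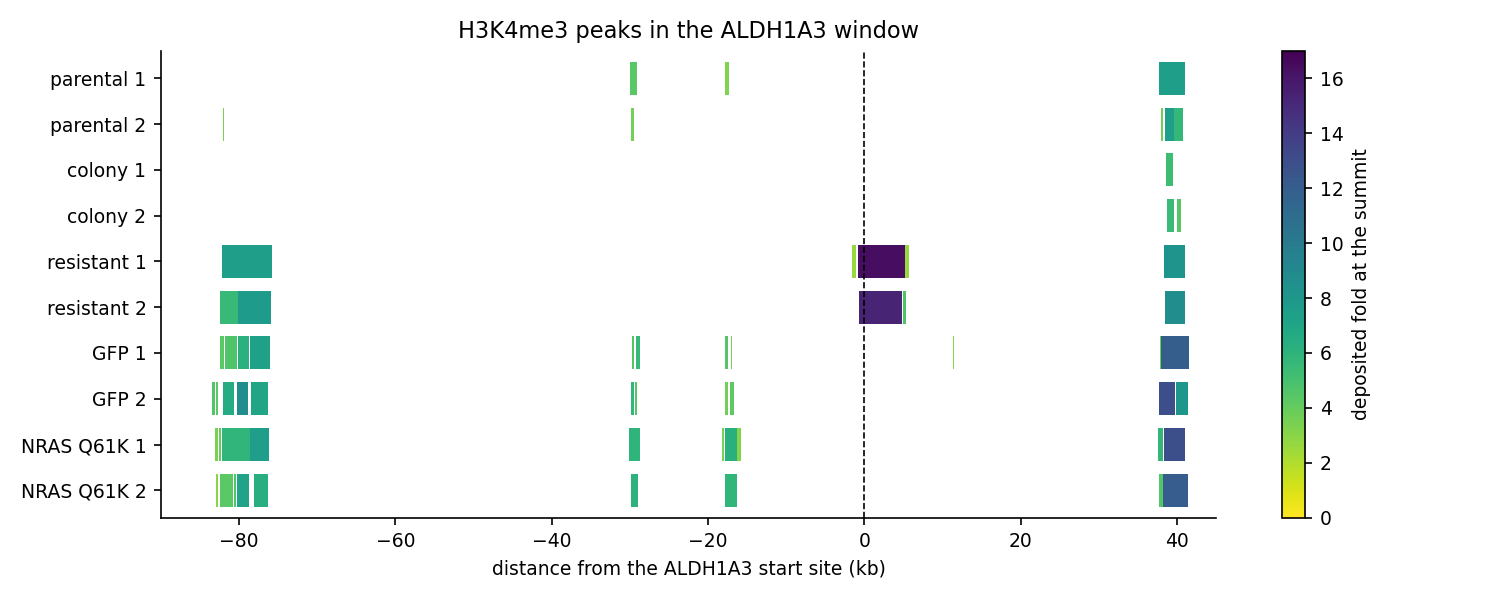
H3K4me3 peaks in the ALDH1A3 stretch, by library (rows) and distance from the start site (x axis, kb; positive is downstream), coloured by the authors' fold at the summit. The promoter block at 0 is in the resistant rows only, with folds of 16.5 and 15.3, while the block near 80 kb upstream is also in the GFP and NRAS Q61K rows.

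Beyond the stretches themselves, the surroundings of the 3 promoters were compared between resistant and parental cells over the regions within 500 kb of each start site. Of 40 such regions other than the promoters, 21 lay around ALDH1A3, 17 around LAD1 and 2 around LIN7A. A gain needs a peak in both resistant and neither parental library, and a loss the reverse. By that rule none of the 40 was gained, against 1.64% of all regions, and 1, the region 30.2 kb upstream of ALDH1A3, was lost, against 11.8% of all regions. The region 83.4 kb upstream of ALDH1A3, with 6356 and 6439 bp in the resistant pair, was not counted as gained because of the 224 bp in parental 2. A peak in parental 1 likewise kept out chr1:201083107-201084321 and chr1:200991617-200992831 near LAD1, and chr15:101707788-101709487 near ALDH1A3. The resistant pair had 930 and 1129, 794 and 762, and 798 and 431 bp there, against 212, 215 and 256 bp in parental 1. With limma, both near LAD1 were called wider (adjusted p = 9.04e-04 and 2.04e-03), the last not (0.0952). Outside the stretches, 26 regions could be tested with limma, of which 6 were wider and 2 narrower in resistant cells. Over the whole genome the shares were 7.93% wider and 20.6% narrower. LAD1 held 5 of the 6 wider regions and 1 of the narrower, out of 14 tested, ALDH1A3 1 of each out of 10, and LIN7A neither out of 2. The 2 regions near LIN7A were small and empty in resistant and parental libraries alike, one with 228 and 261 bp in the GFP pair alone and the other with 557 and 598 bp in the NRAS Q61K pair alone. Other tested regions, around ALDH1A3 and LAD1, were likewise empty in both groups. Centring alone gave each such region a log2 change of 0.197, and none of them was called. Without resistant 2 the wider count fell to 3 of 26, against 3.89% of all regions at that setting. Without parental 2 the narrower count rose to 4 of 26, against 18.7%. When only peaks of −log10 q from 10 upward were kept, 1 of 14 tested regions was wider, against 7.1%. Without centring, 4 of the 26 were wider and 3 narrower, against 3.81% and 31.4%.

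Around LAD1 the nearest constantly marked regions also widened in resistant cells. The one 63.8 kb upstream (chr1:201434180-201439546) had 5026 and 4893 bp in resistant libraries, against 3411 and 3523 bp in the parental pair. The colony pair had 2159 and 1783 bp, GFP 3652 and 3836 bp, and NRAS Q61K 3788 and 4140 bp. Both resistant libraries were above all others, with a rise of 0.69 over parental (log2, SE 0.11, adjusted p = 2.47e-03), while colony cells fell by 0.79 (SE 0.11, adjusted p = 1.77e-03). The one 225 kb downstream (chr1:201139312-201140910) had 953 and 1569 bp in resistant libraries, against 486 and 209 bp in the parental pair, a rise of 1.63 (SE 0.32, adjusted p = 7.01e-03). The colony pair had 507 and 426 bp, GFP 397 and 228 bp, and NRAS Q61K 627 and 825 bp, so both resistant libraries were again the highest. The upstream rise was not called with peaks of −log10 q from 10 upward (0.69, adjusted p = 0.057), nor the downstream rise without resistant 2 (1.31, adjusted p = 0.057) or with lists of equal length (2.101, adjusted p = 0.053). In RefSeq's gene order LAD1 lies between TNNT2 and TNNI1, but regions were not assigned to genes.

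Outside the ALDH1A3 stretch, the nearest constant regions of ALDH1A3 and LIN7A did not change past the threshold in resistant cells. The one 273 kb upstream of ALDH1A3 (chr15:101139066-101144946) had 4258 and 3591 bp in resistant against 4500 and 4150 bp in parental libraries, a change of 0.06 (log2 after centring, SE 0.08, adjusted p = 0.629). The one downstream is the region at 37.6 kb, with 2699 and 2549 bp in resistant and 3241 and 2541 bp in parental libraries. LIN7A sits in a sparsely marked interval, with its nearest constant regions 997 kb downstream and 1417 kb upstream. The first (chr12:80324774-80331339) had 4853 and 5232 bp in resistant against 5675 and 5343 bp in parental libraries (change 0.07, SE 0.07, adjusted p = 0.510). The second (chr12:82750041-82753774) had 2729 and 2456 bp against 3255 and 2703 bp (change 0.01, SE 0.09, adjusted p = 0.916). The LIN7A domain thus lay far from any constantly marked region, while that of LAD1 lay between a pair of them that were wider in resistant cells.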

How the data were processed

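H3K4me3 was mapped by chromatin immunoprecipitation and sequencing (50 bp single reads, per the labels' protocols). The authors deposited 1 narrowPeak list per library. Builds named in the submitters' processing notes are GRCh37 and hg19, and the tools are BWA, SAMtools, MACS2 2.1.2 and deepTools 2.5.4. The 10 inputs were not analysed here, and none of the sources used here says how they entered peak calling or which tool did which step. Each deposited fold is the authors' ratio of summit over local background. At that summit the authors also give −log10 of the p-value and of the q-value. The deposited start, end and summit positions are in bases, and were written counted from 1.

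The 3 genes, their stretches and start sites, and the lists and tests were chosen with earlier results of these data known. Start sites were not checked against an annotation of GRCh37, and other genes of the pathways and cell type markers were not analysed here for want of one. RefSeq tables (GRCh38.p14) served for promoter sequences, which matched 3 of 3 genes with 4 windows, and for gene order.

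Peaks on the 22 autosomes and X were kept (589 of 306884 left out). Peaks of all libraries within 1000 bp were merged into regions, and bases under peaks were counted per library. limma 3.58.1 in R 4.3.3 was fitted on log2(bases + 200), with each library centred on regions marked in all 10, on the 23153 regions that 2 or more libraries marked. The fit had 5 group means, an eBayes trend and Benjamini-Hochberg adjustment per comparison (threshold 0.05). Every log2 change is on that scale, which understates narrow regions. The named regions are every region of the 3 stretches, the nearest region marked in all 10 libraries on either side, and the 3 resistant-only regions closest in mean covered bases. Summit reads solve fold = (k + 1)/(m + 1) and the Poisson p-value for k reads over background m. All peaks of each library gave whole reads within 0.0005. Both fits were tested on simulated data. The lists hold no read counts, so total depth is unknown. Bands came from circlize 0.4.16, and Python 3.11.15 with numpy 2.4.6, scipy 1.17.1, pandas 2.3.3 and matplotlib 3.10.9 did the rest. Alternatives were peaks of −log10 q of 10 or more, lists of equal length (the strongest 19111 peaks of each), a pseudocount of 50 or 1000 bp, no filter, no centring, a fixed 2 kb either side of the start, the replicate number as a block, and leaving out each library, the last of which was chosen after seeing the data for the promoter widths.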

Additional observations from a re-analysis of the deposited data

How the results depend on the processing

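Of 177 alternative values, 162 kept the direction, the side of the threshold or the size of the value reported. Counted only within 2 kb either side of the start, the resistant means moved to 3030 bp for ALDH1A3, 3344 bp for LAD1 and 3423.5 bp for LIN7A, because the count is cut at 2 kb. Leaving out one resistant library gave 6014 to 6934 bp, 3546 to 3932 bp and 4263 to 4631 bp. With stricter peaks or lists of equal length both resistant libraries had a peak at each of the 3 promoters and none of the other 8 did. Gained regions numbered 351 to 724 over the alternatives, and 536 to 686 with one library left out. The region 83.4 kb upstream of ALDH1A3 stayed wider in GFP than in parental cells under all 11 alternatives (2.504 to 5.494, adjusted p 8.30e-06 to 0.022), and 3.62 to 4.82 with one library left out. Between NRAS Q61K and GFP cells it stayed short of the threshold (adjusted p 0.649 to 0.989), with 0.07 to 0.20 when one library was left out. For the surrounding regions in resistant cells, stricter peaks gave 1 wider region. Leaving out one library gave 3 to 6 wider and 2 to 4 narrower. Among named regions, 9 further values crossed the threshold, and they stand beside those regions in the report. At the region 30.2 kb upstream of ALDH1A3, the stricter peaks left both parental and both colony libraries empty, so no direction remained to compare. The cause of these moves was not tested, though the stricter peaks left fewer regions to test.

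Replicate numbers in the titles showed no pairing of the libraries in covered bases, which does not exclude that same-numbered libraries were handled together. Deviations of same-numbered libraries correlated at -0.0659 to 0.0772 over 10 pairs of groups. With the replicate block, GFP exceeded parental cells at the upstream region by 4.22 (adjusted p = 8.47e-03), NRAS Q61K differed from GFP by 0.14 (adjusted p = 0.915), and 6 surrounding regions were wider and 2 narrower. Depth limits what an empty region means, since no listed peak had fewer than 8 to 15 summit reads.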

Other observations

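Local backgrounds at the 3 new domains lay at or above the lowest value of their lists. The median over all peaks was 4.86 reads in resistant 1 and 4.95 in resistant 2. To those digits it was also the lowest background of each list, so closeness to it says little about these places. Backgrounds were 4.89 and 5.46 reads at the ALDH1A3 summit, 5.08 and 5.96 at LAD1, and 4.86 and 4.95 at LIN7A. None of the sources used here says from which library that background was taken.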
